A study of Mus musculus with 12 samples.

Results

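The 10 genes described here are common markers of neurons, Snap25, Syt1, Syp, Stmn2, Tubb3, Nefl, Rbfox3, Slc17a7, Gad1 and Gad2, measured by RNA-Seq in cells that were sorted as oligodendrocytes. They were taken from the count table by symbol, and all 10 of 10 were found among its 55376 gene symbols. The cells came from C57BL/6 mouse brains at postnatal day 40 and were sorted as live CD45- O1+ cells, O1 being a surface lipid of differentiating oligodendrocytes and CD45 a marker of leukocytes. Each sample held the cells of 2 brains, with 4 samples per genotype. The genotypes were wild type (WT replicates 1, 3, 5 and 6), Cnp-Cre Jab1fl/fl (called Jab1 mutant here, replicates 1 to 4) and p21-/- Cnp-Cre Jab1fl/fl (double mutant, replicates 1, 2, 3 and 5). Both mutants carry the Cnp-Cre transgene and the floxed Jab1 alleles, and Jab1 is the older name of Cops5. The Cnp promoter acts in late oligodendrocyte precursors, in oligodendrocytes and in Schwann cells, whereas the p21 (Cdkn1a) deletion of the double mutant is in every cell of the body.

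Neurons release transmitter from synaptic vesicles, support long axons with tubulins and neurofilaments, and make either glutamate or GABA as their main fast transmitter. The marker genes cover these roles, and most are read as signs of neurons in brain tissue because oligodendrocytes make little of their RNA. Some, such as Stmn2 and Tubb3, are already high in young neurons that still extend processes, while others, such as Snap25, Nefl and Slc17a7, belong to mature neurons. Here they were counted in cells sorted as oligodendrocytes.

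The 12 samples had between 61485556 and 153495112 counts, and levels are given on the counts-per-million (CPM) scale, where 1 CPM was at least 68.1 counts in every sample. Among the lists of cell type markers, that of mature oligodendrocytes had the highest median in each genotype, but not the highest sum in every sample. Erythroid genes summed to more in Jab1 mutant 1 (87966 against 33399 CPM) and Jab1 mutant 4 (20695 against 18509 CPM). In Jab1 mutant 3, both the choroid plexus and ependymal list (24122 CPM) and the erythroid list (13919 CPM) were above it (8980 CPM). Cops5 was at 103 ± 39.8 CPM in WT (SD, n = 4), 66.9 ± 18.0 in Jab1 mutants and 58.6 ± 21.5 in double mutants, and the ranges of the 3 genotypes overlapped. Cdkn1a, a cell cycle inhibitor, was at 41.6 ± 31.5, 452 ± 123 and 88.4 ± 17.9 CPM in the same order, so its RNA was still counted in the double mutant. Mitochondrial genes took 1.46% to 3.41% of the counts in WT, 3.76% to 10.1% in Jab1 mutants and 2.5% to 5.08% in double mutants. In these bulk samples, fewer cells of a type and less RNA per cell cannot be told apart.

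The 10 markers had at least 18 counts in every sample, with the exception of Slc17a7 in Jab1 mutant 4 (2 counts). Together they took between 0.0149% and 0.0831% of the counts of a sample. Their summed level was 205 ± 45.6 CPM in WT, 401 ± 247 CPM in Jab1 mutants and 423 ± 228 CPM in double mutants (mean ± SD, n = 4 each). The WT samples lay between 173 and 270 CPM. Jab1 mutant 2 (771 CPM) and double mutant 5 (757 CPM) stood far above all others, and the remaining mutant samples lay between 244 and 348 CPM, so the ranges of WT and both mutants overlapped. Without Jab1 mutant 2, the mean of the Jab1 mutants was 277 CPM, and without double mutant 5 that of the double mutants was 311 CPM.

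**Figure D1:**
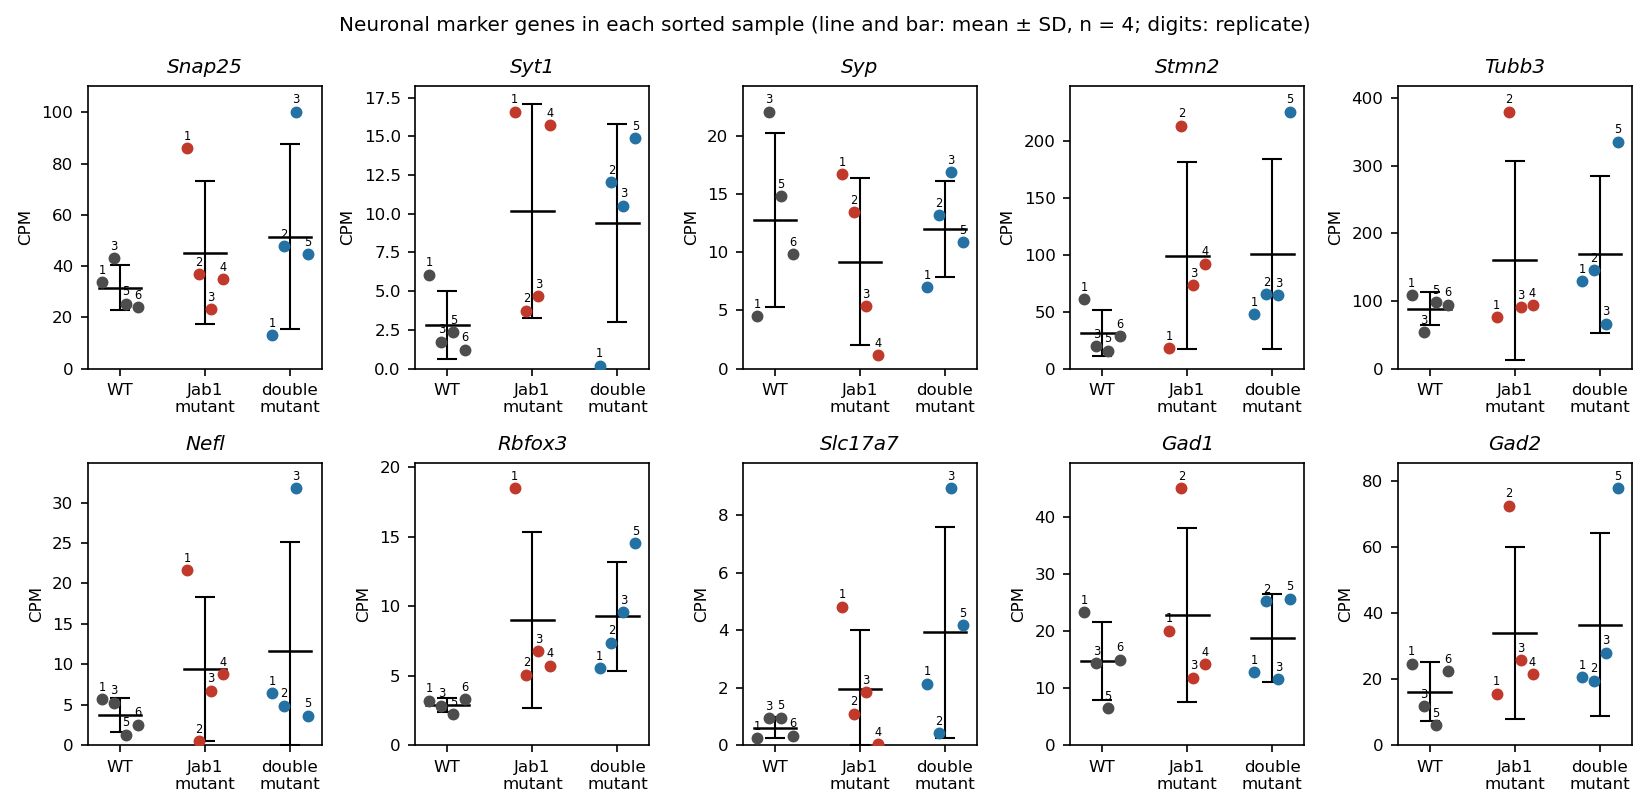
Level in CPM (vertical axes, each starting at 0) of the 10 neuronal marker genes in the 4 samples of each genotype. Points are samples with their replicate number, horizontal lines are means and bars are 1 SD, cut off at 0. Tubb3, Stmn2 and Gad2 peak in Jab1 mutant 2 and double mutant 5. Gad1 does too, but double mutant 5 (25.7 CPM) is barely above double mutant 2 (25.2 CPM). Snap25 and Nefl peak in Jab1 mutant 1 and double mutant 3, and for Rbfox3 alone all 8 mutant points lie above the 4 WT points.

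Levels can be set against each other between genes only per length, for which transcripts-per-million (TPM) values were computed from the exon length of each gene. By mean TPM, Tubb3 ranked highest, followed by Stmn2 and then Snap25, in all 3 genotypes, and Slc17a7 ranked lowest. Tubb3 was at 110 ± 20.5 TPM in WT, above 91.3% of the genes tested, and its lowest WT sample was above the highest of Stmn2 (35.1 ± 21.2 TPM). This was the only pair of neighbours in the order whose ranges did not overlap, in any genotype. Stmn2 and Snap25 (34.4 ± 14.5 TPM in WT) changed places from sample to sample, and so did Syp, Gad1 and Gad2 in the middle of the order. Slc17a7 was at 0.494 ± 0.335 TPM in WT, 1.25 ± 1.12 in Jab1 mutants and 2.5 ± 2.11 in double mutants, above 4.49%, 8.69% and 19.8% of the genes tested.

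The 3 genes of synaptic vesicle release differed from each other in how they varied over the samples. Snap25, on chromosome 2 (136713453 to 136782428, plus strand), encodes a membrane protein of the complex that fuses vesicles with the cell membrane. Its levels were 33.7, 43.0, 25.3 and 24.1 CPM in WT 1, 3, 5 and 6, 85.9, 36.8, 23.2 and 34.9 CPM in Jab1 mutants 1 to 4, and 13.0, 47.6, 100.3 and 44.7 CPM in double mutants 1, 2, 3 and 5. Jab1 mutant 1 and double mutant 3 were the highest, double mutant 1 was the lowest of all, and the genotypes overlapped. The fitted log2 fold change against WT was 0.52 ± 0.41 (SE) in Jab1 mutants and 0.70 ± 0.51 in double mutants. Without Jab1 mutant 1 the first of these was 0.0084, and without double mutant 3 the second was 0.15.

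Syt1, on chromosome 10 (108497650 to 109010982, minus strand), encodes the calcium sensor of transmitter release. It was at 6.06, 1.74, 2.34 and 1.21 CPM in the WT samples, at 16.6, 3.73, 4.67 and 15.7 CPM in Jab1 mutants and at 0.192, 12.03, 10.5 and 14.9 CPM in double mutants. Double mutant 1 had 18 Syt1 counts, under all WT samples, while the other double mutants were above all of them. Against WT, its log2 fold change was 1.84 ± 0.76 in Jab1 mutants (adjusted p = 0.176, edgeR) and 1.72 ± 1.01 in double mutants (adjusted p = 0.524, edgeR). Without WT 1 these were 2.53 and 2.40.

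Syp, on the X chromosome (7638471 to 7653256, plus strand), encodes synaptophysin, an abundant protein of the vesicle membrane. Its levels were 4.53, 22.1, 14.8 and 9.83 CPM in WT, 16.7, 13.5, 5.38 and 1.16 CPM in Jab1 mutants and 7.03, 13.2, 16.9 and 10.9 CPM in double mutants. WT 3 was the highest and Jab1 mutant 4 the lowest, and no mutant sample exceeded the highest WT sample. Syp was the only one of the 10 markers with a fitted value below WT in both mutants, with log2 fold changes of -0.48 ± 0.75 and -0.10 ± 0.53. The second of these was above 0 without WT 3 (0.29) and without double mutant 1 (0.09). Exons of Syp share 875 bases with the antisense gene Gm14703, and since the strand setting of the counting is not given in the sources used here, the reads of these genes cannot be told apart.

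Of the 3 genes of the cytoskeleton, Stmn2 and Tubb3 peaked in the same samples and Nefl in others. Stmn2, on chromosome 3 (8509360 to 8561606, plus strand), encodes a regulator of microtubules in growing axons. It was at 60.8, 19.5, 15.7 and 28.5 CPM in WT 1, 3, 5 and 6, at 18.0, 213, 73.4 and 92.0 CPM in Jab1 mutants 1 to 4, and at 47.7, 65.2, 64.3 and 225 CPM in double mutants 1, 2, 3 and 5. In both mutants 3 of 4 samples were above the highest WT sample, and Jab1 mutant 1 and double mutant 1 were not. Its log2 fold change was 1.67 ± 0.65 in Jab1 mutants (adjusted p = 0.148) and 1.69 ± 0.58 in double mutants (adjusted p = 0.269, both edgeR). Without Jab1 mutant 2 the first was 0.97, and without double mutant 5 the second was 0.91.

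Tubb3, on chromosome 8 (123411424 to 123422015, plus strand), encodes the beta tubulin that is typical of neurons. Its levels were 108, 53.3, 97.7 and 94.3 CPM in WT, 75.8, 379.6, 91.1 and 93.2 CPM in Jab1 mutants and 129, 145, 66.5 and 335 CPM in double mutants. The other 3 Jab1 mutants lay within the range of WT. The log2 fold change in Jab1 mutants, 0.86 ± 0.51, was -0.036 without Jab1 mutant 2, and that in double mutants, 0.92 ± 0.46, was 0.35 without double mutant 5.

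Nefl, on chromosome 14 (68083863 to 68089095, plus strand), encodes the light neurofilament, a part of the scaffold of mature axons. It was at 5.70, 5.26, 1.30 and 2.5 CPM in WT, at 21.6, 0.516, 6.73 and 8.77 CPM in Jab1 mutants and at 6.41, 4.86, 31.8 and 3.61 CPM in double mutants. Jab1 mutant 2, where Tubb3 was highest, had the lowest Nefl of all 12 samples. Nefl had a log2 fold change of 1.35 ± 0.92 in Jab1 mutants and 1.66 ± 0.81 in double mutants, and these were 0.54 without Jab1 mutant 1 and 0.44 without double mutant 3. Nefl shares 1108 exonic bases with Nefm on the opposite strand, with the same limit as for Syp.

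Rbfox3, on chromosome 11 (118489762 to 118911597, minus strand), encodes the splicing factor NeuN, the usual nuclear stain for mature neurons. It was at 3.20, 2.84, 2.21 and 3.29 CPM in WT, at 18.5, 5.07, 6.76 and 5.72 CPM in Jab1 mutants and at 5.53, 7.38, 9.57 and 14.6 CPM in double mutants. The WT samples were close together, with a coefficient of variation of 17.1%, the smallest of any marker in any genotype. All 8 mutant samples were above all 4 WT samples, and no other marker showed this. Its log2 fold change was 1.64 ± 0.63 in Jab1 mutants (adjusted p = 0.147) and 1.67 ± 0.54 in double mutants (adjusted p = 0.238, both edgeR). Without Jab1 mutant 1 the first was 1.02.

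Of the 3 genes that define the transmitter, Gad1 and Gad2 had higher mean levels per length than Slc17a7 in all 3 genotypes. Slc17a7, on chromosome 7 (45163949 to 45176142, plus strand), encodes VGLUT1, which loads glutamate into vesicles. It was at 0.236, 0.924, 0.951 and 0.325 CPM in WT, at 4.83, 1.09, 1.85 and 0.0269 CPM in Jab1 mutants and at 2.14, 0.420, 8.95 and 4.19 CPM in double mutants. Jab1 mutant 4 held 2 Slc17a7 counts, under the floor of 3 counts taken as detection, and 3 of 4 samples of each mutant were above all WT samples. No WT sample reached 1 CPM, so the gene passed the low-count filter through mutant samples only. The log2 fold change was 1.68 ± 1.28 in Jab1 mutants and 2.68 ± 1.06 in double mutants, the highest fitted value of the 10 markers in the second comparison (adjusted p = 0.334, edgeR). These were 0.70 without Jab1 mutant 1 and 1.89 without double mutant 3.

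Gad1, on chromosome 2 (70553072 to 70602014, plus strand), and Gad2, on the same chromosome (22622205 to 22693874, plus strand), encode the enzymes that make GABA from glutamate. Both were highest in Jab1 mutant 2 and double mutant 5, and part of the sequence before their RefSeq starts is shown because they share this pair of samples, Gad1 with the higher level in Jab1 mutant 2 and Gad2 in double mutant 5. For Gad1, double mutant 5 (25.7 CPM) was barely above double mutant 2 (25.2 CPM). The sequences are from RefSeq (GRCm38.p6), where 7 of the 10 markers had an entry, and cover 128 bases of each promoter on the plus strand, with no exonic base of the GENCODE M21 basic set. The gene span of Gad1 given above begins with a transcript that starts further upstream, so that its stretch lies inside this span, before the first basic exon at 70562042, and its RefSeq start is at 70562129. For Gad2, chr2:22622077-22622204, the capitals mark the core of an RE1 element, letters GCACC and GGACAGC with any 2 bases between them, searched on both strands. RE1 is the site of REST, a repressor of neuronal genes outside neurons. For Gad1, chr2:70561879-70562006, the capitals mark a TATA box, letters TATAAA, which is read here on the minus strand.
Gad2: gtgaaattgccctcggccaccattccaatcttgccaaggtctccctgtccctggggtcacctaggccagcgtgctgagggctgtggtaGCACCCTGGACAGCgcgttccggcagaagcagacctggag
Gad1: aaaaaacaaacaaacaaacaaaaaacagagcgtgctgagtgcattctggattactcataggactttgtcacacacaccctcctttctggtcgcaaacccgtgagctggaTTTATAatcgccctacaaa

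The RE1 core lay at bases -162 to -149 of the RefSeq start of Gad2 and was found in 14 of 32851 mouse promoters of the same length (0.0426%), and in none of the other 6 markers with an entry. The TATA letters lay at bases -141 to -136 of the RefSeq start of Gad1 and were found in 13.6% of promoters. The promoter entries reach from 250 bases before to 50 bases after a start. A GC box (letters CCGCCC, both strands, 35.7% of promoters) was found in 5 of the 7 markers, Gad1, Slc17a7, Syp, Syt1 and Tubb3, and a CCAAT box (letters CCAAT, both strands, 37.4%) in 4, Gad2, Rbfox3, Syt1 and Tubb3. These matches describe letters in a window and were not tested for binding.

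Gad2 was at 24.6, 11.8, 6.02 and 22.3 CPM in WT, at 15.6, 72.4, 25.8 and 21.5 CPM in Jab1 mutants and at 20.6, 19.4, 28.0 and 77.7 CPM in double mutants. Gad1 was at 23.3, 14.3, 6.49 and 14.9 CPM in WT, at 20.02, 45.02, 11.8 and 14.2 CPM in Jab1 mutants and at 12.7, 25.2, 11.5 and 25.7 CPM in double mutants. Outside Jab1 mutant 2 and double mutant 5, 2 mutant samples lay above the highest WT sample for Gad2 and 1 for Gad1. The log2 fold change of Gad2 was 1.06 ± 0.57 in Jab1 mutants and 1.16 ± 0.57 in double mutants, and these were 0.36 without Jab1 mutant 2 and 0.47 without double mutant 5. For Gad1 the values were 0.63 ± 0.52 and 0.34 ± 0.47. In TPM, Gad1 and Gad2 together made up 3.13% to 8.32% of the 10 markers in every sample, and this share was 6.49% in Jab1 mutant 2 and 5.70% in double mutant 5.

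**Figure D2:**
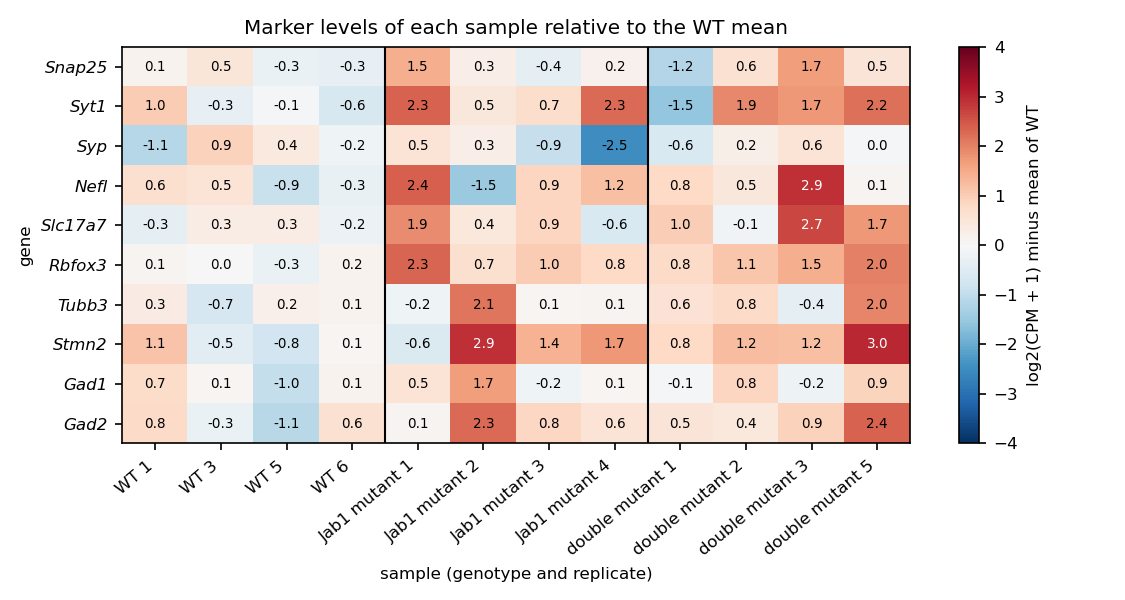
Each cell gives log2(CPM + 1) of a marker gene in a sample minus the WT mean of that gene, with samples in columns by genotype and genes in rows. Stmn2 was 2.9 above the WT mean in Jab1 mutant 2 and 3.0 in double mutant 5, where Nefl was at -1.5 and 0.1. Nefl was 2.4 above it in Jab1 mutant 1 and 2.9 in double mutant 3, where Tubb3 was at -0.2 and -0.4.

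The comparison of Jab1 mutants with WT asks whether the sorted mutant cells hold more or less of these neuronal RNAs. None of the 10 markers passed the test (edgeR quasi-likelihood, adjusted p below 0.05), against 7.64% of all 17716 genes tested. At an unadjusted p below 0.05 there were 3 of 10, Syt1, Stmn2 and Rbfox3, all with fitted values above WT, and 22.5% of all genes (13.2% higher and 9.3% lower). Fitted values were above WT for 9 of 10 markers and for 51.0% of all genes, with a median log2 fold change of 1.21 over the markers and 0.02 over all genes. Slc17a7, which passed the low-count filter through mutant samples only, is among these, and without it 8 of 9 markers were above WT, with a median of 1.06. The adjusted p-values of the markers ran from 0.147 to 0.769. For Rbfox3, the single marker whose groups did not overlap, the same held of 9.88% of all genes in the higher direction and 7.26% in the lower. DESeq2 on the same samples called 1 marker, Stmn2 (log2 fold change 1.67, adjusted p = 0.0325), with 15.2% of all genes called.

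The comparison of double mutants with WT asks the same with p21 deleted as well. Again 0 of 10 markers passed edgeR's test, against 0.192% of all genes (0.175% higher and 0.0169% lower). At an unadjusted p below 0.05 there were 3 of 10, Stmn2, Rbfox3 and Slc17a7, all above WT, against 12.4% of all genes (7.82% higher and 4.57% lower). Fitted values were above WT for 9 of 10 markers and 50.0% of all genes, with a median log2 fold change of 1.41 over the markers and an adjusted p from 0.238 to 0.960. Without Slc17a7, whose passing of the filter rested on mutant samples, 2 of 9 had an unadjusted p below 0.05 and 8 of 9 were above WT, with a median of 1.16. The groups did not overlap for Rbfox3 alone, and for 4.52% of all genes in the higher and 3.58% in the lower direction. DESeq2 called 1 marker, Rbfox3 (log2 fold change 1.70, adjusted p = 0.0334), and 4.87% of all genes. Both comparisons used the same 4 WT samples, so their values are not independent of each other.

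**Figure D3:**
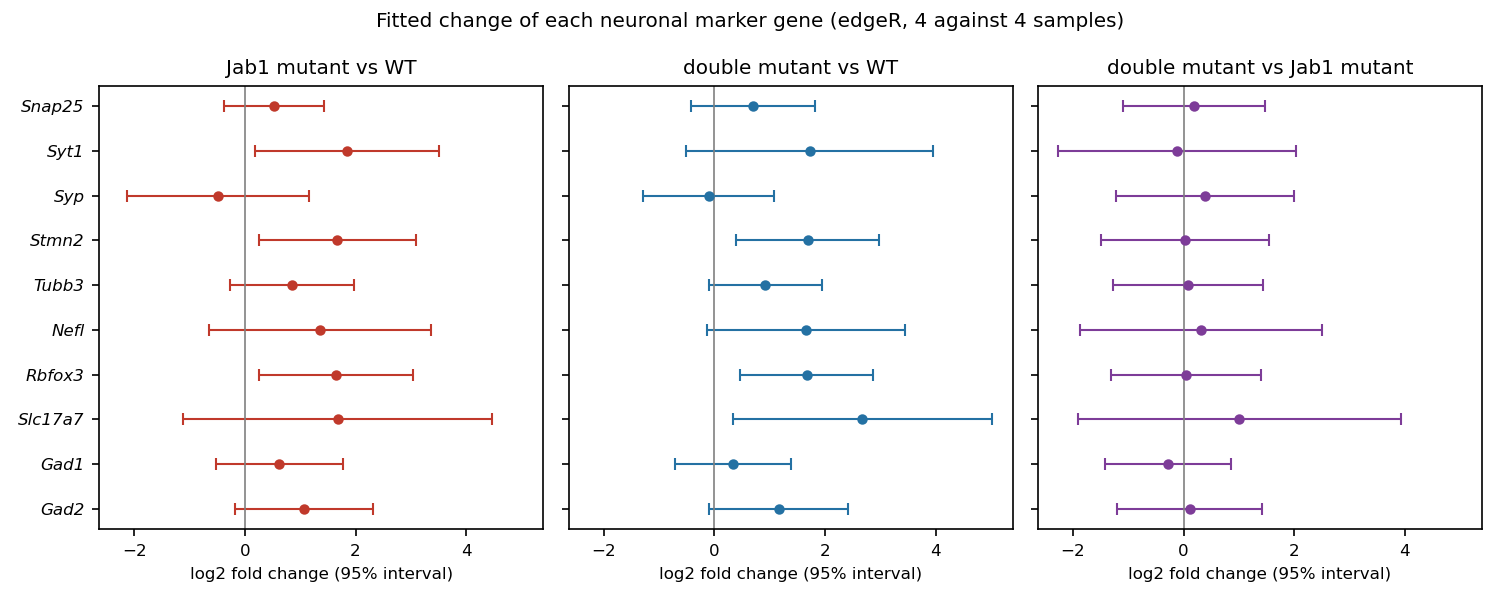
Fitted log2 fold change of each marker gene (points) with its 95% interval (bars) in the 3 comparisons of genotypes, edgeR with 4 against 4 samples. The intervals lie above 0 for Syt1, Stmn2 and Rbfox3 in Jab1 mutants against WT and for Stmn2, Rbfox3 and Slc17a7 in double mutants against WT, and include 0 for all 10 genes between the mutants. These intervals are not adjusted for the number of genes.

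The comparison of double with Jab1 mutants asks whether the p21 deletion changes the level of neuronal RNA in the mutant cells. With edgeR 0 of 10 markers passed, as did 0.0% of all genes. No marker had an unadjusted p below 0.05, against 5.0% of all genes (1.75% higher and 3.25% lower), and DESeq2 called 0 markers and 0.491% of all genes. The median log2 fold change was 0.09 over the markers and 0.02 over all genes, with values from -0.28 for Gad1 to 1.01 for Slc17a7. The 95% intervals were wide, reaching from -1.49 to 1.53 for Stmn2, from -1.32 to 1.39 for Rbfox3 and from -1.91 to 3.93 for Slc17a7. With 4 samples each, differences within these intervals in either direction were not excluded. Fitted values were above 0 for 8 of 10 markers and 51.3% of all genes. The mutant groups overlapped for all 10 markers, while 1.23% of all genes lay fully higher and 1.99% fully lower in double mutants.

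The markers did not vary as 1 block over the samples. Stmn2 and Tubb3 together made up 86.7% of the summed TPM of the 10 markers in Jab1 mutant 2 and 84.7% in double mutant 5, but 42.2% in Jab1 mutant 1 and 46.9% in double mutant 3. Snap25, Syt1 and Syp made up 6.36% and 8.02% in the first pair of samples and 41.4% and 37.7% in the second. The ratio of Stmn2 to Snap25 in TPM was 0.226 in Jab1 mutant 1 and 6.24 in Jab1 mutant 2, with WT between 0.489 and 1.95. A high share of Stmn2 and Tubb3 was also seen in double mutant 1 (83.0%), whose summed level was 239 TPM, within the range of WT (167 to 260 TPM). WT 3 had a high share of the vesicle genes (38.1%).

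**Figure D4:**
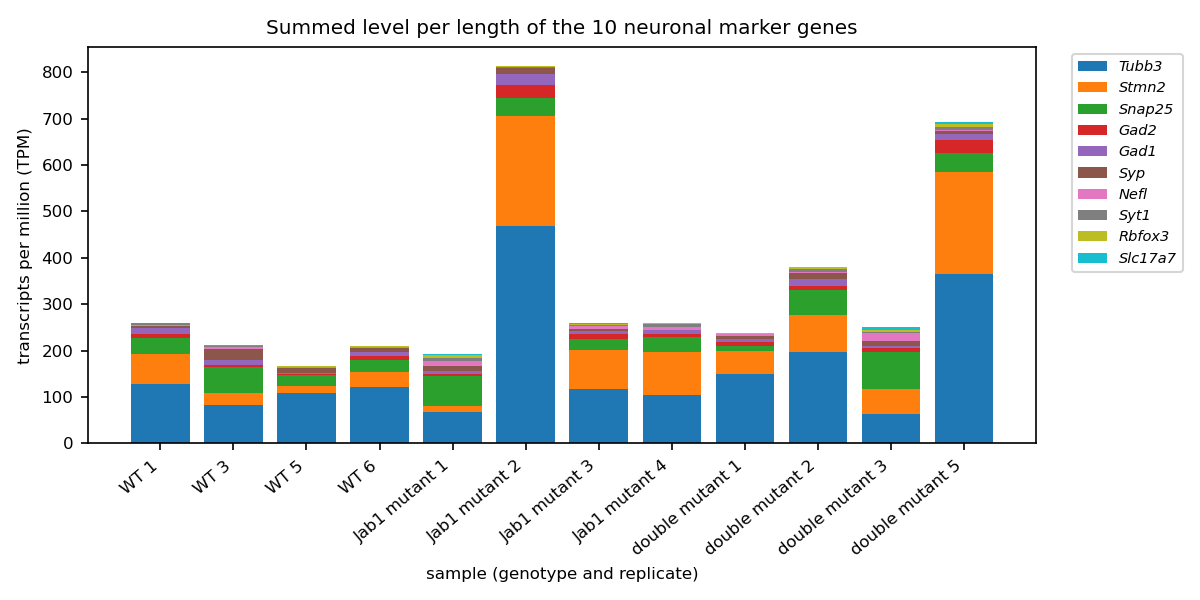
Summed level of the 10 marker genes in TPM (vertical axis from 0) in each of the 12 samples, with the part of each gene in colour. Jab1 mutant 2 reaches 814 TPM and double mutant 5 reaches 692 TPM, mostly as Tubb3 and Stmn2, while the highest WT sample reaches 260 TPM.

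For each of the 45 pairs of markers, the deviations of log2(CPM + 1) from the genotype means were correlated over the 12 samples, with an exact permutation test that relabelled samples within genotypes (13824 relabelings) and Benjamini-Hochberg adjustment over the pairs. Stmn2 and Gad2 passed (r = 0.876, exact permutation p = 5.8e-04, adjusted p = 0.026), and r was 0.869 without the 2 samples farthest in Stmn2, Jab1 mutants 1 and 2. Double mutant 5, the highest of all samples in both genes, stayed in, so this value does not show the pair without it. By rank, rho was 0.832 with an exact permutation p of 0.0044, and adjustment over the pairs took it past the threshold (adjusted p = 0.199). Tubb3 and Nefl deviated in opposite directions (r = -0.864, exact permutation p = 0.0032, adjusted p = 0.0716; rho = -0.790, adjusted p = 0.243), and r was -0.761 without Jab1 mutant 2 and double mutant 5. At an unadjusted exact permutation p below 0.05 there were 7 pairs, and r was above 0 in 26 of 45. The values of a sample share its library and depth.

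Another 66 genes of neurons, listed by role, were read in the same fit, and 54 of them passed the low-count filter. In Jab1 mutants against WT 4 of the 54 rose and 2 fell (edgeR, adjusted p below 0.05), against 5.19% of all genes higher and 2.46% lower. Meg3, a noncoding RNA of neurons and other cells, rose by 2.80 on the log2 scale (14.9 ± 5.57 CPM in WT and 104 ± 47.2 CPM in Jab1 mutants, adjusted p = 0.0038). Map1b, a microtubule protein of growing axons, rose by 1.52 (123 ± 18.0 and 353 ± 97.5 CPM, adjusted p = 0.0128). Uchl1, a ubiquitin hydrolase abundant in neurons (1.37, adjusted p = 0.0489), and Ppp1r1b, a phosphatase regulator of striatal neurons (1.18, adjusted p = 0.0489), also passed. The groups of all 4 genes were fully apart, as were those of 9.88% of all genes in the higher direction. Of the other striatal genes listed, Penk (0.92, adjusted p = 0.786, edgeR) and Rgs9 (0.38, adjusted p = 0.837, edgeR) did not pass. Drd1 failed the low-count filter. In WT, Penk was at 2.61 CPM and Rgs9 at 2.83 CPM, against 50.3 CPM for Ppp1r1b. Meg3 and Map1b passed without any single sample (adjusted p at most 0.0161 and 0.0383), but Uchl1 passed only when Jab1 mutant 3 was left out and Ppp1r1b only when Jab1 mutant 2 was, and their adjusted p reached 0.119 without WT 6 and 0.13 without Jab1 mutant 3.

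The genes that fell were Sv2a, a vesicle protein, from 161 ± 68.3 to 26.7 ± 7.91 CPM (log2 fold change -2.58, adjusted p = 0.0037), and Kcna1, an axonal potassium channel, from 221 ± 103 to 51.0 ± 38.03 CPM (-2.11, adjusted p = 0.0415). The 10 neuronal markers summed to 205 ± 45.6 CPM in WT, and which cells made the RNA of Sv2a and Kcna1 was not tested. Mapt, the gene of tau, which oligodendrocytes also make, had the next smallest p among the lower genes and did not pass (-1.35, adjusted p = 0.0514). All 4 Jab1 mutants were below all WT samples for each of these genes, and for 7.26% of all genes. Sv2a passed without any single sample (adjusted p at most 0.0166), while Kcna1 passed only when WT 1 or Jab1 mutant 2 was left out and reached an adjusted p of 0.105 without WT 3. The median log2 fold change was 0.91 over the 54 genes, but -0.56 over the 13 genes of vesicles and release among them and 1.11 over the 11 genes of the cytoskeleton and axon.

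In double mutants against WT, 0 of the 54 genes passed with edgeR, where 0.192% of all genes did. At an unadjusted p below 0.05 there were 10 higher and 1 lower, beside 7.82% and 4.57% of all genes, and DESeq2 called 5 of the 54, among them Dlx2, Map1b, Sv2a and Uchl1, beside 4.87% of all genes. Map1b had the smallest adjusted p (1.76, adjusted p = 0.0596), followed in the higher direction by Uchl1 (1.53, adjusted p = 0.117) and Gap43, a growth cone protein (1.36, adjusted p = 0.236). In the lower direction these were Sv2a (-2.13, adjusted p = 0.0957), Rgs9, a striatal regulator of G protein signals (-1.96, adjusted p = 0.415), and Snap91, a protein of vesicle recycling (-0.94, adjusted p = 0.469). Between double and Jab1 mutants 0 of the 54 passed with edgeR or DESeq2 (0.0% and 0.491% of all genes), and 4 had an unadjusted p below 0.05, beside 5.0% of all genes. Among the genes with the smallest p-values were Rab3a (0.72) and Kcna1 (1.77) in the higher direction and Neurod1 (-2.63), Rgs9 (-2.33) and Meg3 (-1.31) in the lower, all with an adjusted p of 0.950 or more.

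Several of these genes were, like Stmn2 and Gad2, highest in Jab1 mutant 2 and double mutant 5, as seen after their values were known. Dlx2, a transcription factor of forebrain GABA neurons and their precursors, was at 182 and 242 CPM there and between 12.8 and 65.0 CPM in the other 10 samples. Dcx, a protein of migrating young neurons, was at 83.2 and 91.3 CPM there and between 2.96 and 39.7 CPM elsewhere. Markers of single neuron types ranged widely. Ppp1r1b of striatal neurons was between 28.7 CPM in WT 5 and 213 CPM in double mutant 3. The other striatal genes listed, Penk, Drd1 and Rgs9, reached 12.8, 8.07 and 5.78 CPM, all in Jab1 mutant 1. Nrgn and Camk2a, of excitatory forebrain neurons, reached 53.8 CPM in Jab1 mutant 1 and 32.5 CPM in double mutant 3. Among peptides of interneurons, Npy reached 20.2 CPM in Jab1 mutant 2 and Sst 12.3 CPM in Jab1 mutant 1, while Vip had no count in any of the 12 samples, where 3 counts would be at most 0.0441 CPM. Of the cerebellar genes, Calb1 reached 17.6 CPM and Neurod1 11.6 CPM, and Gabra6, of granule cells, had no count in any sample. Neurod1 was at most 1.68 CPM in WT and at least 5.83 CPM in Jab1 mutants, and 9.88% of all genes lay fully higher in this way. It did not pass (log2 fold change 3.95, adjusted p = 0.159, edgeR). The transporters Slc17a6 (VGLUT2) and Slc32a1, which loads GABA into vesicles, reached at most 2.11 and 2.25 CPM, both in Jab1 mutant 2.

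Markers of some other cell types differed between Jab1 mutants and WT. The summed level of 10 mature oligodendrocyte genes was between 45162 and 105826 CPM in WT, between 8980 and 35153 CPM in Jab1 mutants and between 16876 and 52735 CPM in double mutants, and 7 of the 10 fell in Jab1 mutants. The 10 microglia genes summed to between 85.1 and 225 CPM in WT, between 751 and 1743 CPM in Jab1 mutants and between 247 and 12549 CPM in double mutants, where double mutant 3 stood apart, and all 10 rose in Jab1 mutants. For the 7 endothelial genes the ranges were 281 to 647, 696 to 4799 and 571 to 4522 CPM (5 rose in Jab1 mutants), for the 6 mural genes 253 to 454, 947 to 1656 and 281 to 1627 CPM (3 rose), and for the 6 genes of choroid plexus and ependyma 278 to 3992, 6354 to 24122 and 5344 to 23531 CPM (1 rose). Rose and fell mean an edgeR adjusted p below 0.05, which 5.19% of all genes met as higher and 2.46% as lower in Jab1 mutants. The choroid plexus sum was mostly Ttr (mean 14336 of 14497 CPM in Jab1 mutants), and the median log2 fold change of its 6 genes was 1.75. No gene of these lists passed in either comparison of double mutants, where 0.192% and 0.0% of all genes did. In double mutants against WT, the median was 4.64 over the microglia genes and -1.38 over the mature oligodendrocyte genes.

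The 8 astrocyte genes were between 4949 and 11336 CPM in WT, 3097 and 7717 in Jab1 mutants and 3546 and 9963 in double mutants, with 0 of 8 called by edgeR. The 8 genes of oligodendrocyte precursors summed to 405 to 1063, 435 to 717 and 323 to 722 CPM, and 2 rose in Jab1 mutants. Ptprz1 made up most of this sum, with a mean of 706 of 753 CPM in WT and 440 of 551 CPM in Jab1 mutants. The median log2 fold change over the 8 genes was 1.56 in Jab1 mutants and -0.27 in double mutants against WT. Globin and other erythroid genes ranged from 879 to 87966 CPM over all samples, with 0 of 5 called by edgeR. No gene of any list was at or under 3 counts in a whole genotype. The part of these cell types, of mitochondrial share and of depth in the differences of the neuronal markers was not tested.

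**Figure D5:**
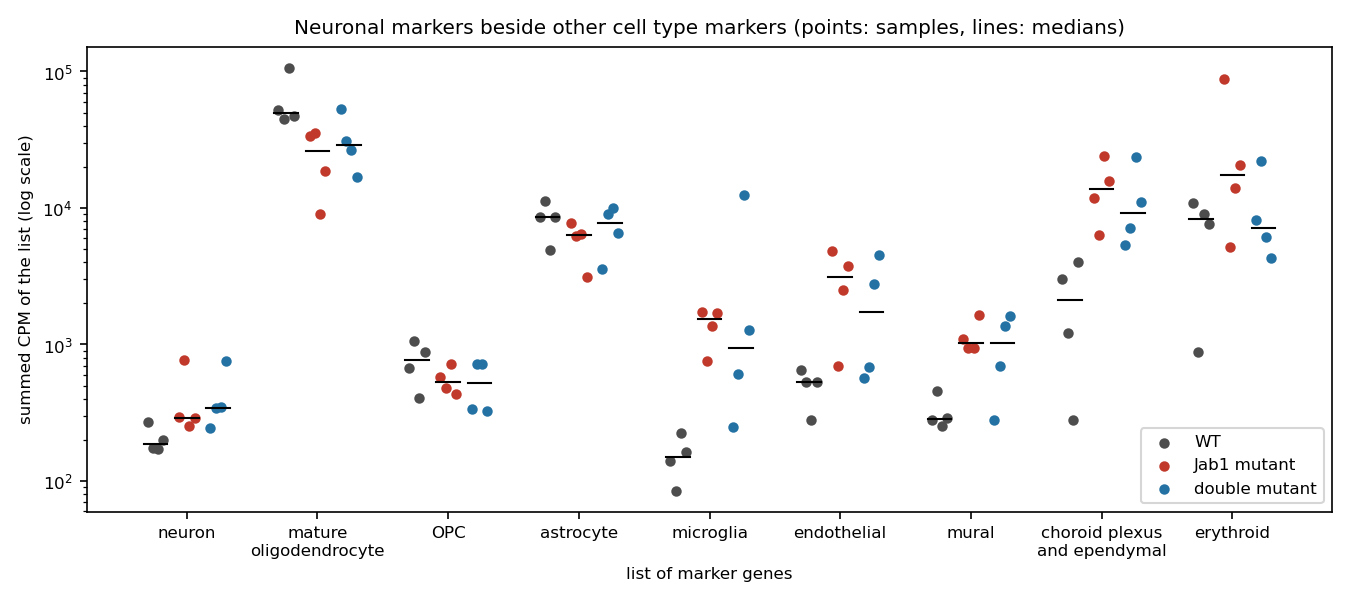
Summed CPM (log axis) of the 10 neuronal markers and of lists of marker genes of 8 other cell types in each sample, with lines at the genotype medians. The median of the neuronal list was 188 CPM in WT, 290 CPM in Jab1 mutants and 345 CPM in double mutants, while the microglia list had medians of 151, 1535 and 943 CPM and the mature oligodendrocyte list 49429, 25954 and 28919 CPM.

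Among all other genes tested, those whose log2(CPM + 1) over the 12 samples was most like the mean of the 10 markers were Slc19a1 (Pearson r = 0.927), Ier2 (0.924), Polr2m (0.918), Cited2 (0.918) and Slc38a1 (0.918). For single markers, the most alike genes were S1pr2 for Snap25 (0.926), Ifi47 for Syt1 (0.898), Ap3m2 for Syp (0.972), Cdca8 for Stmn2 (0.942) and Dpysl3 for Tubb3 (0.923). They were Tm6sf1 for Nefl (0.920), Stra6 for Rbfox3 (0.940), Rell2 for Slc17a7 (0.888) and Dlx2 for Gad2 (0.952). Each value is the top of all other genes tested, over 12 samples of which some share a genotype, and is given as a description.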

How the data were processed

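Raw counts per gene symbol were deposited by the authors for the 12 samples. RNA had been amplified with a SMART-Seq v4 kit, and per the submitters' processing notes reads were trimmed (Trimmomatic 0.32), aligned to GRCm38 (STAR 2.5.3a) and counted with featureCounts. Strand and multi-mapping settings are not given in the sources used here. Genotypes and replicate numbers came from the labels.

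CPM used TMM factors over all 12 samples, and TPM the exon lengths of GENCODE M21. Genotypes were compared in pairs, 8 samples at a time, by the quasi-likelihood F test of edgeR 4.0.16 in R 4.3.3. It covered the 17716 genes that reached 1 CPM in 4 or more of the 12 samples, and p-values were adjusted by the Benjamini-Hochberg method with a threshold of 0.05. All 10 markers passed this filter. edgeR took the place of the authors' DESeq2 (DESeq2 1.42.0 here), which was an alternative, with RLE size factors, 2 other filters, all 12 samples in 1 fit, the replicate number as a block, and each sample left out in turn. The script was tested on simulated data. Members and lists were chosen with earlier results of these data known. Named were all markers, neuronal genes of the wider list that passed or had the 3 smallest p-values in each direction, and the genes nearest in profile. Some genes that this rule names are not reported here. Dcx and the markers of single neuron types were picked after their values were seen. P-values measure the spread between samples of 2 pooled brains. No samples of a genotype agreed within counting noise (lowest ratio of chi-square to its degrees of freedom 211). Counts are without molecular identifiers, so the floor of 3 counts covers counting error only.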

Additional observations from a re-analysis of the deposited data

Results flagged for a closer look

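In 5 of the 30 groups of 4 samples (10 markers in 3 genotypes), the gap between the highest or the lowest sample and its neighbour was a larger part of the group's whole range than the 95% limit of Dixon's test for 4 samples allows. For normally distributed values chance passes this limit, at either end, in about 1 in 20 groups, and its rate for these CPM values, which are not on a log scale, was not tested. All 5 are high samples of a mutant. Stmn2 was at 225 CPM in double mutant 5, with the others between 47.7 and 65.2 CPM, and Gad2 was at 77.7 CPM in the same sample, with the others between 19.4 and 28.0 CPM. Tubb3 was at 379.6 CPM in Jab1 mutant 2, with the others between 75.8 and 93.2 CPM. Nefl was at 31.8 CPM in double mutant 3, with the others between 3.61 and 6.41 CPM. Rbfox3 was at 18.5 CPM in Jab1 mutant 1, with the others between 5.07 and 6.76 CPM. The groups are not independent, since the same samples give the values of all 10 markers.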

How the results depend on the processing

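No alternative other than DESeq2 called a marker. DESeq2 called 1 marker in Jab1 mutants against WT and 1 in double mutants against WT, and 0 between the mutants. Of 408 fitted values of single markers under alternatives, 373 kept their direction and their side of the threshold, 2 passed it, and 33 changed direction, 29 of them between the mutants. The summed levels moved by less than 1 SD under other scalings. They also did so without single samples, but this part does not test stability. Leaving out a single sample of a genotype can never move its mean by as much as 1 SD of that genotype. The lower means without the highest sample of each mutant are given above.

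Of the wider list, Jab1 mutants against WT had 6 genes called, with 12 by DESeq2, 9 at a mean of at least 10 CPM, 5 with RLE size factors, 3 each without filter, with all 12 samples in 1 fit and with the replicate block, and 3 to 6 without single samples. Double mutants against WT had 0, with 5 by DESeq2, 2 each at a mean of at least 10 CPM and with all 12 samples, and 0 to 2 without single samples. Of all genes, 1354 were called in Jab1 mutants against WT, 2689 by DESeq2, 660 with the block and 678 to 1863 without single samples. In double mutants against WT the 34 calls became 862 by DESeq2, 21 without filter, 140 at a mean of at least 10 CPM, 164 with all 12 samples, 1 with the block and 1 to 274 without single samples, with 274 when double mutant 1 was left out. Between the mutants 0 became 87 by DESeq2, 5 at a mean of at least 10 CPM and 0 to 2 without single samples. The cause was not tested. Calls with the block rest on fewer samples, namely those whose replicate number occurs in both genotypes.

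The replicate numbers did not pair the samples: deviations of same-numbered samples correlated between -0.104 and 0.0609 in 8 pairs. In Jab1 mutants against WT the block brought Stmn2 to 0.08, Tubb3 to 0.13, Gad2 to 0.24 and Slc17a7 to 2.67 and turned Gad1 to -0.25, in double mutants against WT it brought Syt1 to 1.1, and between the mutants it turned Stmn2 to -0.17, Tubb3 to -0.36, Rbfox3 to -0.20, Slc17a7 to -0.22 and Gad2 to -0.43, with Nefl at 1.46. It left 0 markers called in each comparison. A mean of at least 10 CPM, which kept 6 markers, gave -0.015 for Stmn2 between the mutants.

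Without single samples, Tubb3 ran from -0.036 to 1.09 in Jab1 mutants against WT, and Syp from -0.39 to 0.29 in double mutants against WT. Between the mutants the ranges were -0.35 to 0.70 for Snap25, -0.43 to 0.30 for Syt1, -0.75 to 0.72 for Stmn2, -0.49 to 0.96 for Tubb3, -0.89 to 1.14 for Nefl, -0.27 to 0.68 for Rbfox3, -0.49 to 0.29 for Gad1 and -0.58 to 0.80 for Gad2. In every sample 1 CPM was at least 68.1 counts, but these are without molecular identifiers, and the part of depth in the values was not tested. The intervals rest on the spread between 4 samples per genotype.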
